A study of Mus musculus with 12 samples.

Results

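Apolipoproteins and the albumin family are the main proteins that hepatocytes secrete into blood plasma, and 10 of their genes were followed here in cultured mouse hepatocytes: Alb, Afp and Afm of the albumin family, and Apoa1, Apoa2, Apoa4, Apob, Apoe, Apom and Apoc3. They were chosen by name, and each had 1 probe set among the 11861 genes measured. Albumin holds water in the blood and carries fatty acids and drugs, alpha-fetoprotein (Afp) is its counterpart in the fetus, and afamin (Afm) carries vitamin E. Apolipoproteins wrap the lipid particles of plasma: Apob is the fixed scaffold of very low density lipoprotein (VLDL), the particle in which liver exports fat, whereas the smaller ones move between particles, build high density lipoprotein (HDL) and steer enzymes and receptors. Afp is known in mouse liver for being shut down after birth.

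The cells were spheroids, compact aggregates that form when hepatocytes cannot attach to the plate. Hepatocytes of 3 C57BL/6 mice, an inbred strain, were pooled and frozen to make a preparation, and there were 2 preparations of male and 2 of female cells. The labels give neither the age of the mice nor any drug or other treatment. RNA was taken 1, 7 and 14 days after the aggregates had formed. The 6 groups (male day 1, 7 and 14, female day 1, 7 and 14) thus held 2 arrays each. Levels are the deposited log2 values, so a difference of 1 is a 2-fold one. The preparations are pools, and differences between single mice were not measured. In a culture of mixed cells, fewer cells of a type and less RNA per cell cannot be told apart.

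Array medians ran from 7.47 to 7.53. Of 15 hepatocyte markers 13 were measured, with a mean level between 11 and 11.28 on the male arrays and between 11.29 and 11.48 on the female arrays. The Y-linked genes Eif2s3y, Kdm5d and Uty were at 4.78 or above on all male arrays and at 2.47 or below on all female arrays, as the labels have it. Markers of other cells moved with culture time. The mean over 13 of 15 stellate cell markers ran from 6.88 to 7.06 at day 1, 5.58 to 6.42 at day 7 and 4.17 to 6.56 at day 14. That over 10 of 14 endothelial markers ran from 5.65 to 6.34, 4.74 to 6.26 and 4.03 to 5.68 on the same days, and that over 17 of 20 macrophage markers from 5.02 to 6.00, 5.75 to 7.00 and 5.71 to 7.48. Both the stellate and the endothelial mean were lowest in male preparation 1 at day 14.

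In the mouse genome Alb, Afp and Afm follow one another on chromosome 5 with no other protein-coding gene between them, and Apoa1, Apoc3, Apoa4 and Apoa5 do so on chromosome 9. Apoe lies beside Apoc1 on chromosome 7, and Apoa2, Apob and Apom have no apolipoprotein gene next to them. The 250 bases before the annotated start are shown for the 3 albumin-family neighbours, of which Afp and Afm differed between the sexes and Alb did not pass that test, and for Apoa4, the member with the deepest fall over the culture. Sequences are from RefSeq (GRCm38.p6), 5′ to 3′ along the gene. Capitals mark matches on either strand to GTTAAT, one arm of the palindrome bound by the liver factor HNF1, and to CAAAGTNCA, a form of the site bound by HNF4.
Alb, chr5:90460620-90460869, plus strand: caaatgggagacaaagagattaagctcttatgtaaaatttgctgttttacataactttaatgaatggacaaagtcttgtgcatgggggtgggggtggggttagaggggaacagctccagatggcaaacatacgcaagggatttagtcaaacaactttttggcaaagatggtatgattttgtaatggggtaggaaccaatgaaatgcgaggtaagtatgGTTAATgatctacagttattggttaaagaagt
Afp, chr5:90490464-90490713, plus strand: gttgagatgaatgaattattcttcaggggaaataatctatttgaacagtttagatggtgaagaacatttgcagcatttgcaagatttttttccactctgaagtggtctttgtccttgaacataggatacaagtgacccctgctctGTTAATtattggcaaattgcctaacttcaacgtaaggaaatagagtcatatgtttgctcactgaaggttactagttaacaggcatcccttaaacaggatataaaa
Afm, chr5:90518699-90518948, plus strand: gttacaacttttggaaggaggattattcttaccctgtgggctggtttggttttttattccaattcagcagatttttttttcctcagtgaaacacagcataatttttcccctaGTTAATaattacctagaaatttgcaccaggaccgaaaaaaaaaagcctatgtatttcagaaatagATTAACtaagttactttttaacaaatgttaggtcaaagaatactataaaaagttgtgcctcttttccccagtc
Apoa4, chr9:46240594-46240843, plus strand: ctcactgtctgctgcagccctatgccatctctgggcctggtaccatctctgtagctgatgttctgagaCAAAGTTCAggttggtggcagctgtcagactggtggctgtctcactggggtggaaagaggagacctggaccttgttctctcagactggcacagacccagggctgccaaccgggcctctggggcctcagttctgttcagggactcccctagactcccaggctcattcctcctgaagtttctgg
Of the 10 genes 9 matched the promoter table, through 12 windows, and Apoc3 did not. GTTAAT stood in all 3 windows of the albumin family (at positions -32 to -27 from the start in Alb, -105 to -100 in Afp, and -138 to -133 and, on the other strand, -73 to -68 in Afm), in 1 of the other 9 windows, a start of Apoe, and in 6.43% of 32851 windows of all genes. CAAAGTNCA stood in 1 of the 12 windows, that of Apoa4, and in 1.19% of all. No window shown held both motifs, and a match is a description of letters, not of a bound site.

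The comparison of the sexes asked whether male and female cultures differ on a given day. Afp and Afm were lower in male than in female spheroids on all 3 days, by about 2-fold. Afp stood at 9.98 and 10.39 in the male preparations at day 1, against 11.48 and 11.26 in the female ones. At day 7 it was 10.23 and 10.24 in males, against 11.23 and 11.28 in females, and at day 14 it was 9.95 and 10.09 in males, against 10.81 and 10.84 in females. The highest male array thus lay below the lowest female array over the whole culture. The difference was -1.18 ± 0.14 at day 1, -1.02 ± 0.14 at day 7 and -0.80 ± 0.14 at day 14 (log2, male minus female, model SE, 2 preparations per sex), or 0.441, 0.494 and 0.573 of the female level. By limma with Benjamini-Hochberg adjustment over all genes, adjusted p was 0.00688, 0.0282 and 0.0342.

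Afm stood at 8.82 and 8.58 in males at day 1, against 9.72 and 9.72 in females. At day 7 it was 9.31 and 9.51 in males, against 10.45 and 10.40 in females, and at day 14 8.95 and 9.24 in males, against 10.34 and 10.14 in females. Here too no male array reached a female one. The differences of -1.02, -1.01 and -1.15 (SE 0.13 each, adjusted p = 0.0128, 0.0278 and 0.0116) were of like size on the 3 days. Afp and Afm were the 2 of 10 members whose 6 male arrays all lay below the 6 female arrays, which 1.48% of all genes did (3.28% with either sex lower). They were also the 2 members past the test on each day, where 0.767%, 0.354% and 1.06% of all genes passed at days 1, 7 and 14 (0.422%, 0.16% and 0.809% as lower in males, 0.346%, 0.194% and 0.253% as higher).

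With the 3 days of a preparation averaged, Afm was lower in males by limma (-1.06 ± 0.07, adjusted p = 0.0415), 1 member of 10 against 0.177% of all genes (0.0843% lower, 0.0927% higher), and Afp, at 0.5 of the female level, did not pass (adjusted p = 0.0536). In the tests by day, the calls of both genes were lost when a preparation was left out, except that of Afm at day 14 without male 2. Adjusted p was 0.0631 to 0.186 for Afp and 0.117 to 0.22 for Afm at day 1, 0.115 to 0.273 and 0.0808 to 0.293 at day 7, and 0.0673 to 0.22 for Afp and, where lost, 0.0755 to 0.155 for Afm at day 14. The differences themselves stayed between -1.39 and -0.73. With the day 14 array of male 1 left out the day 14 calls were lost (adjusted p = 0.242 for Afp and 0.0877 for Afm) and Afp passed over all days (0.0499). Afm over all days did not pass with any preparation left out (adjusted p from 0.0713 without male 2 to 0.226 without male 1). Afp over all days also passed with dim genes, those with a mean under 6, left out (0.016) and with a trended and robust spread (2.41e-05).

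Some marker means ran the same way as Afp and Afm. The hepatocyte mean of each male array was below that of each female array, as given above. By limma 0 of 13 markers passed on any day, where 0.767%, 0.354% and 1.06% of all genes did at days 1, 7 and 14. An unadjusted p under 0.05 was found for 3, 2 and 3 of the 13, against 1602, 1570 and 1762 of 11861 genes. Median differences were -0.03, -0.02 and -0.06. The largest differences were those of Cyp2e1, at -0.93, -2.75 and -2.56 (adjusted p = 0.731, 0.275 and 0.254). At day 14 the stellate mean was 4.17 and 5.04 in males, against 6.56 and 6.07 in females, and the endothelial mean 4.03 and 4.45 in males, against 5.68 and 5.26 in females. At day 1 the stellate mean was 7.01 and 6.88 in males, against 6.92 and 7.06 in females. The endothelial mean was then 5.65 and 6.21 in males, against 6.34 and 6.21 in females. The part of these markers in the lower Afp and Afm of males was not tested.

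Alb, the third gene of the same cluster, lay between 12.71 and 12.78 on all 12 arrays, and its male minus female difference was between -0.01 and 0.02 on the 3 days. Apoa1, the main protein of HDL, differed by -0.07 to -0.03, Apoe, the ligand through which cells take up lipid particles, by -0.07 to -0.04, and Apob by -0.07 to 0.02. Values above 12 are compressed by the array, so that differences there are understated: Alb, Apoa1 and Apoe exceeded 12 on all 12 arrays, Apoa2 on 10 and Apoa4 on 5. Apoa2 stood at -0.67 ± 0.12 in males against females at day 1, just outside the threshold (adjusted p = 0.050025), and passed with the preparation as a random block (0.0473), with dim genes left out (0.0229) and with a trended and robust spread (0.00317). At day 14 Apoa4 stood at -0.69 ± 0.16 (adjusted p = 0.0947), Apom at -0.65 ± 0.17 (0.114) and Apoc3 at -0.44 ± 0.13 (0.144), and none of these passed. With a trended and robust spread Apom (0.0257) and Apoc3 (0.0375) did. The plot of male minus female differences shows the 10 genes side by side.

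**Figure D1:**
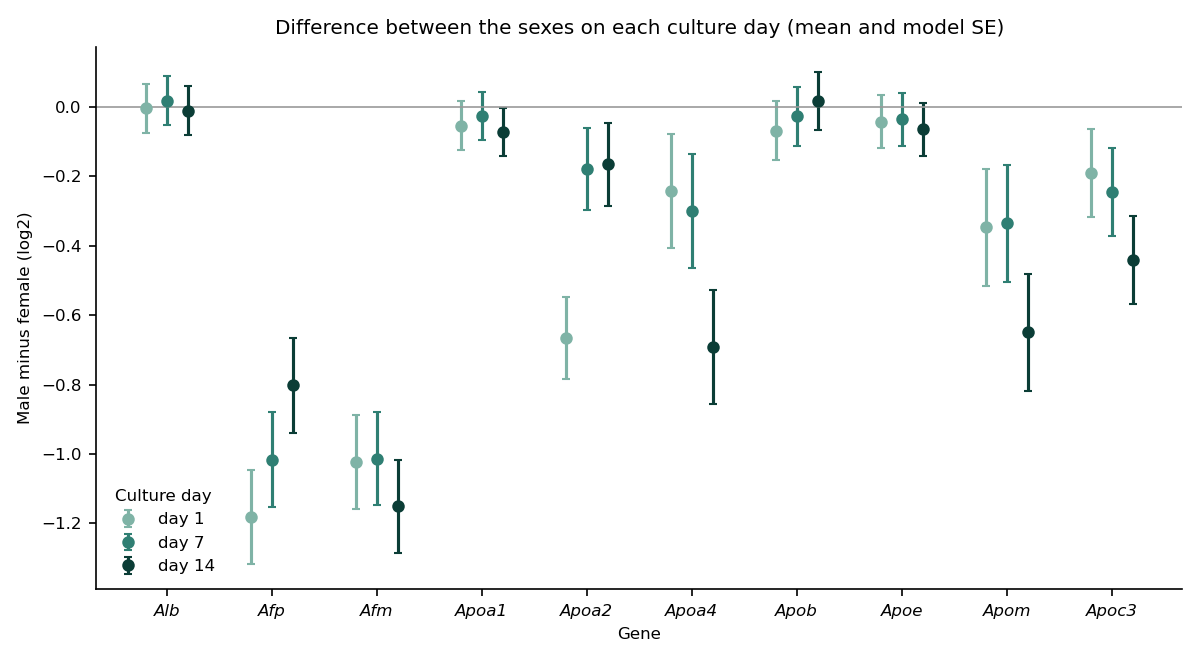
Male minus female difference in log2 level for each gene at culture days 1, 7 and 14 (points, with the model's SE as bars, 2 preparations per sex). Afp and Afm lie between -1.18 and -0.80, and Alb, Apoa1, Apob and Apoe lie within 0.08 of 0.

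Levels on every array are drawn in the plot of level by culture day.

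**Figure D2:**
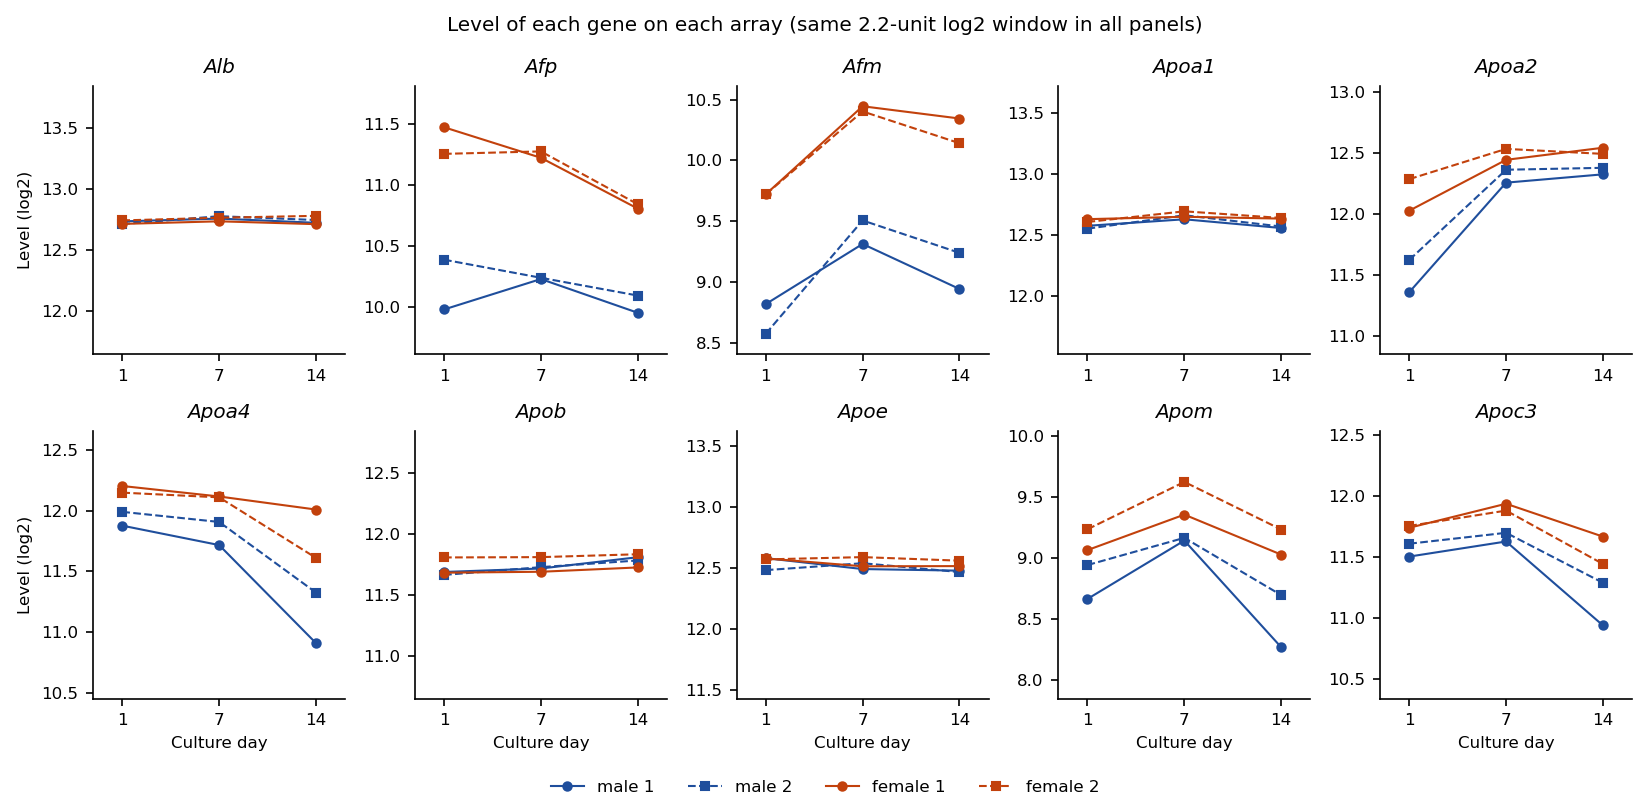
Log2 level of each gene (vertical axis, the same 2.2-unit window in every panel) at culture days 1, 7 and 14 in the 2 male (blue) and 2 female (orange) preparations. Alb, Apoa1, Apob and Apoe run flat, Apoa2 and Afm are higher after day 1, and Apoa4 and Apoc3 are lowest at day 14.

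The comparison of culture days asked how the cells change as the spheroids age. Over the first week, Afm and the HDL apolipoprotein Apoa2 rose and no member fell: 2 of 10 passed in day 7 against day 1, where 4.72% of all genes did (2.74% higher, 1.98% lower). Afm, with the levels given above, changed by 0.49 and 0.93 in male preparations 1 and 2 and by 0.72 and 0.68 in female preparations 1 and 2, that is by 0.71 ± 0.09 on average (1.63-fold, adjusted p = 0.00712). Apoa2 stood at 11.36 and 11.62 in males and 12.03 and 12.28 in females at day 1. At day 7 it stood at 12.26 and 12.36 in males and 12.44 and 12.53 in females, and at day 14 at 12.32 and 12.38 in males and 12.54 and 12.49 in females. The lowest array at day 14 was therefore above the highest at day 1, and Apoa2 was the 1 of 10 members whose days did not overlap, where 15.8% of all genes did not. Between days 7 and 1, 0 members had arrays that did not overlap, against 10.4% of all genes, and between days 14 and 7 also 0, against 5.21%. The Apoa2 change in day 7 against day 1 was 0.58 ± 0.08 (1.49-fold, adjusted p = 0.00987). Neither call was kept when a preparation was left out (adjusted p from 0.0514 without male 1 to 0.0862 without female 2 for Afm, and from 0.0778 without female 2 to 0.137 without male 1 for Apoa2), while the changes stayed between 0.53 and 0.82.

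Over the whole culture, in day 14 against day 1, Apoa2 and Afm rose and Apoa4, Afp and Apoc3 fell, 5 of 10 members against 14.4% of all genes (7.59% higher, 6.8% lower). The median change of the 10 was -0.02, against 0.01 over all genes. Apoa2 rose by 0.61 ± 0.08 (1.53-fold, adjusted p = 0.00247), with changes of 0.97 and 0.76 in male preparations and 0.52 and 0.21 in female ones. The sexes differed in this change by 0.50 ± 0.17, which did not pass (adjusted p = 0.521). The males started lower, and by day 14 the difference between the sexes had a value of -0.17 ± 0.12. Apoa2 exceeded 12 on all female arrays and on the male arrays of days 7 and 14, where differences are understated. Afm rose by 0.46 ± 0.09 (1.37-fold, adjusted p = 0.0148), with the smallest change, 0.12, in male preparation 1. Apoa2 lost its call without male 1 (adjusted p = 0.0511), and Afm without male 2 (0.126), female 1 (0.134) or female 2 (0.0881).

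Apoa4, which liver and gut secrete when fat flux is high, had the deepest fall. It stood at 11.88 and 11.99 in males and 12.20 and 12.15 in females at day 1. At day 7 it stood at 11.72 and 11.91 in males and 12.12 and 12.11 in females, and at day 14 at 10.91 and 11.33 in males and 12.01 and 11.61 in females. All 4 preparations were lower at day 14 than at day 1, though the female 1 array at day 14 stayed above the male day 1 arrays. The change was -0.59 ± 0.12 (0.665 of the day 1 level, adjusted p = 0.0121). Apoc3, which slows the removal of triglyceride from plasma by inhibiting lipoprotein lipase, lies next to Apoa4 and stood at 11.51 and 11.61 in males and 11.74 and 11.76 in females at day 1. It stood at 11.63 and 11.70 in males and 11.94 and 11.88 in females at day 7, and at 10.94 and 11.29 in males and 11.67 and 11.44 in females at day 14. Its change of -0.32 ± 0.09 (0.802 of the day 1 level, adjusted p = 0.047) had the same sign in all 4 preparations.

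The preparations fell in the same order in both neighbours. From day 1 to day 14 Apoa4 changed by -0.96 in male 1, -0.66 in male 2, -0.54 in female 2 and -0.19 in female 1, and Apoc3 by -0.57, -0.32, -0.31 and -0.07 in that order. Apoa4 stood above 12, where differences are understated, in the female preparations at day 1 and still in female 1 at day 14. The levels of Apoa4 and Apoc3 over the 12 arrays had a Pearson r of 0.944, which describes 3 samplings of the same 4 preparations and is no independent test. Among all pairs of the 10 genes this was the highest value. Likeness was not limited to neighbours: Apom, on chromosome 17, had r = 0.876 with Apoc3 and 0.746 with Apoa4. Outside the 10 genes, Adi1 (0.965), Cyp17a1 (0.961) and Pde3b (0.959) had higher values with Apoa4 than Apoc3 had. Apoa1, on the other side of Apoc3, had r = 0.691 with Apoc3 and 0.524 with Apoa4, and changed by 0.01 ± 0.05 in day 14 against day 1. Apoa5, which promotes the clearing of triglyceride and lies beyond Apoa4, stood at -0.36 ± 0.30 (adjusted p = 0.487). Male preparation 1 at day 14, the lowest array for both genes, also had the lowest stellate and endothelial marker means (4.17 and 4.03); their part in the result was not tested, and without that array Apoa4 passed and Apoc3 did not (-0.23, adjusted p = 0.112).

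**Figure D3:**
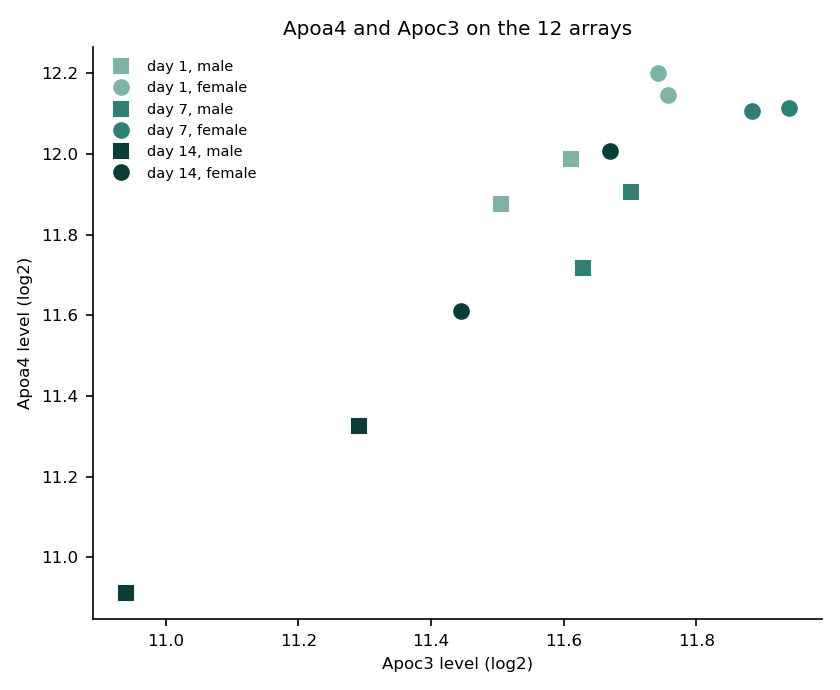
Log2 level of Apoa4 (vertical axis) against that of its genomic neighbour Apoc3 (horizontal axis) on the 12 arrays, squares for male and circles for female preparations, shaded by culture day. The 2 male arrays at day 14 lie lowest on both axes.

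Afp fell by 0.35 ± 0.10 in day 14 against day 1 (0.784 of the day 1 level, adjusted p = 0.0438). Its changes were -0.03 and -0.29 in males and -0.67 and -0.41 in females. The preparations with the most Afp at day 1 had the larger falls. The day 1 value enters both the level and the change, so this order is no independent test. The sexes differed in this change by 0.38 ± 0.19, which did not pass (adjusted p = 0.791). Afp, Apoa4 and Apoc3 did not pass with any preparation left out: adjusted p ran from 0.0835 without male 1 to 0.249 without female 1 for Afp, from 0.0503 without female 1 to 0.105 without female 2 for Apoa4, and from 0.0966 without male 2 to 0.27 without female 2 for Apoc3. Their changes stayed within -0.42 to -0.28, -0.67 to -0.50 and -0.38 to -0.26. Afp also lost its call with the day 14 array of male 1 left out (-0.32, adjusted p = 0.123), and Apoc3 after a second quantile normalization (0.0507).

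**Figure D4:**
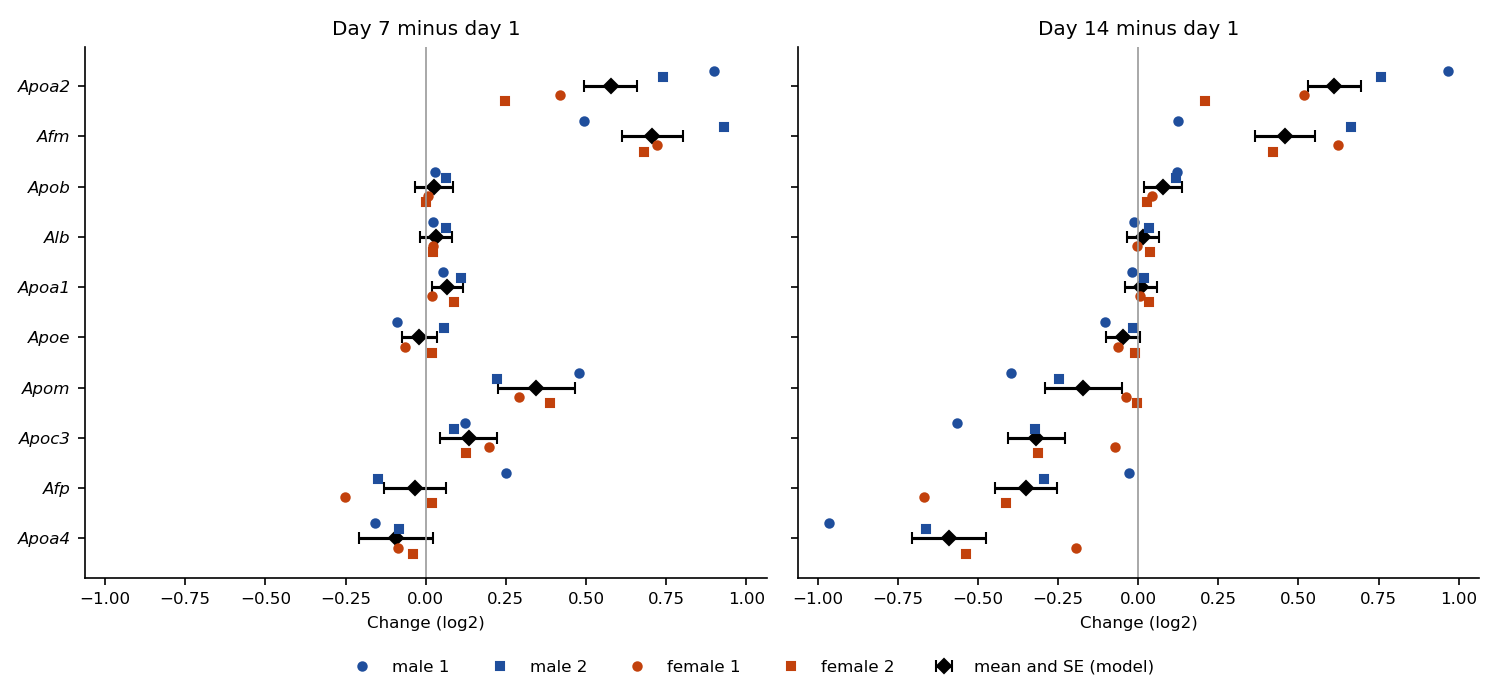
Change in log2 level from day 1 to day 7 (left) and from day 1 to day 14 (right) for each gene, with the 4 preparations as coloured points and the model's mean and SE in black. Apoa2 and Afm lie to the right of 0 in both panels, and Apoa4, Afp and Apoc3 lie left of 0 at day 14 in all 4 preparations.

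Alb, Apoa1, Apob and Apoe did not pass in any comparison of days, and their intervals were narrow. In day 14 against day 1 Alb changed by 0.01 (95% interval -0.10 to 0.13), Apoa1 by 0.01 (-0.10 to 0.12), Apob by 0.08 (-0.06 to 0.21) and Apoe by -0.05 (-0.17 to 0.07), with adjusted p from 0.45 to 0.931. Over all 12 arrays Alb spanned 0.0683, Apoe 0.123, Apoa1 0.143 and Apob 0.17, against a median span of 0.574 over all genes. For Alb, Apoa1 and Apoe the narrow span comes with levels above 12, where change is compressed, whereas Apob stayed between 11.66 and 11.83. Macrophages express Apoe too. Of their 17 measured markers 2 rose and 1 fell in day 14 against day 1, against 7.59% and 6.8% of all genes. Apoe was between 12.47 and 12.59 on all arrays.

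Over the second week, in day 14 against day 7, 0 of 10 members passed by limma, against 0.489% of all genes. An unadjusted p under 0.05 was found for 5 of the 10, against 1626 of 11861 genes. All 5 had values below 0: Apom (-0.52 ± 0.12, adjusted p = 0.111), Apoa4 (-0.50 ± 0.12, 0.114), Apoc3 (-0.45 ± 0.09, 0.0767), Afp (-0.32 ± 0.10, 0.186) and Afm (-0.25 ± 0.09, 0.294). Each of these was negative in all 4 preparations. Apom, an HDL protein that carries the signalling lipid sphingosine-1-phosphate, stood at 8.67 and 8.94 in males and 9.07 and 9.24 in females at day 1. At day 7 it stood at 9.15 and 9.17 in males and 9.36 and 9.63 in females, and at day 14 at 8.27 and 8.70 in males and 9.03 and 9.24 in females. It was thus highest at day 7 in each preparation, with 0.35 ± 0.12 in day 7 against day 1 (adjusted p = 0.154) and -0.17 ± 0.12 in day 14 against day 1 (0.398). With the preparation as a block, which compares each preparation with itself, Apom passed in day 14 against day 7 (adjusted p = 0.0482); with a trended and robust spread Apom (0.0167) and Apoc3 (0.00775) did, and with dim genes left out Apoc3 did (0.0382). The change of the second week minus that of the first was -0.96 ± 0.16 for Afm, -0.86 ± 0.21 for Apom and -0.59 ± 0.15 for Apoc3. By limma 0 of 10 members passed this test (adjusted p = 0.147, 0.22 and 0.239 for these genes), against 0.00843% of all genes. There 4 members had an unadjusted p under 0.05, against 1244 of 11861 genes. For the sex difference in the change from day 1 to day 14, 0 of 10 members passed by limma, against 0% of all genes. Only 1, Apoa2, had an unadjusted p under 0.05, against 815 of 11861 genes.

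For each member that spanned at least 1 log2 unit, the 3 genes whose levels ran most alike over the 12 arrays were looked up, as a description of 3 samplings of 4 preparations. For Afp they were Lepr, the leptin receptor (r = 0.961), St3gal6 (0.952) and Tspan2 (0.952). For Afm they were Fgf1 (0.982), Fmo1 (0.956) and Aspdh (0.952). Those of Apoa2 were Mep1a (0.961), Hadh (0.957) and Slc2a5 (0.948). Those of Apoa4 were Adi1 (0.965), Cyp17a1 (0.961) and Pde3b (0.959), and those of Apom were Nsdhl (0.962), the complement gene C8b (0.959) and Slc17a8 (0.946).

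Of the other apolipoproteins and lipid transfer genes, 8 of 12 listed were measured. In day 7 against day 1, 0 of 8 passed by limma, against 4.72% of all genes, and 3 had an unadjusted p under 0.05, against 2315 of 11861 genes. In day 14 against day 1, 4 had an unadjusted p under 0.05, against 3398 of 11861 genes, and 1 of 8 passed, a share near that of all genes (14.4%). Pltp, which moves phospholipid between particles, rose by 0.86 ± 0.22 (adjusted p = 0.0358), and lost its call without male 1 (0.212), male 2 (0.101), female 1 (0.194) or the day 14 array of male 1 (0.0829). Apoc1, the neighbour of Apoe, stood at 0.32 ± 0.08 in day 7 against day 1 (adjusted p = 0.0643) and at 0.28 ± 0.08 in day 14 against day 1 (0.0529), and passed in both when each preparation was compared with itself (0.0433 and 0.0348). It was higher at day 14 in 4 of 4 preparations. Apoc1 also passed in both with dim genes left out (0.0367 and 0.0338) and, in day 14 against day 1, after a second quantile normalization (0.0446) or with the day 14 array of male 1 left out (0.044). In day 7 against day 1 Pltp passed by limma with a trended and robust spread (adjusted p = 0.0366) and with dim genes left out (0.0339). Apoc1 passed there with a trended and robust spread (0.0032). The median of the 8 genes was 0.09 in both comparisons.

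Of the genes that assemble and export lipoproteins, 3 of 21 measured of 22 fell and 2 rose in day 14 against day 1 (median 0.05). Over all genes 6.8% fell and 7.59% rose. In day 7 against day 1, 1 of the 21 fell, against 1.98% of all genes. With a trended and robust spread Abcg1 (0.58, adjusted p = 0.044) and Cideb (0.26, 0.00574) also passed there by limma. Apobec1 is the enzyme that edits the Apob transcript so that it codes for a shorter protein. It fell by 0.56 ± 0.08 in day 7 against day 1 (adjusted p = 0.0113) and by 0.76 ± 0.08 in day 14 against day 1 (0.00104). Mttp, which loads lipid onto the Apob protein, fell by 0.43 ± 0.08 (0.00778), and Smlr1, needed for VLDL secretion in mice, by 0.45 ± 0.09 (0.0158). Abcg1, which exports cholesterol to HDL, rose by 0.90 ± 0.15 (0.00599), and Cideb, which adds lipid to VLDL, by 0.31 ± 0.07 (0.0255). Apobec1 at day 14 passed with any preparation left out. Its day 7 call was lost in each such fit (adjusted p from 0.055 to 0.174). Cideb lost its call in day 14 against day 1 in each such fit (0.0612 to 0.202). Mttp lost its call without male 1 (0.113) or female 2 (0.104), Smlr1 without male 1 (0.18), male 2 (0.0563) or female 2 (0.155), and Abcg1 without male 1 (0.0703) or male 2 (0.0887). With the day 14 array of male 1 left out Smlr1 (0.0543) and Cideb (0.0523) did not pass.

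Of 18 measured genes of 28 for the uptake and lipolysis of lipoproteins, 0 passed in day 7 against day 1 by limma, against 4.72% of all genes. There 2 had an unadjusted p under 0.05, against 2315 of 11861 genes. With a trended and robust spread Lpl (0.33, adjusted p = 0.0148) and Vldlr (-0.47, 0.0299) passed there by limma. In day 14 against day 1, 1 rose and 3 fell (median 0.06), against 7.59% and 6.8% of all genes. Lpl, the lipase that Apoc3 inhibits, rose by 0.90 ± 0.10 (adjusted p = 0.000902), a call kept with any preparation left out. Vldlr, a receptor for particles that carry Apoe, fell by 0.95 ± 0.14 (0.00396), Gpihbp1, which holds the lipase on capillary endothelium, by 0.72 ± 0.11 (0.00372) and Angptl8, an inhibitor of that lipase, by 0.47 ± 0.11 (0.0249). Endothelial markers were lower beside Gpihbp1, with 5 of 10 past the test in day 14 against day 1 and 0 higher. Over all genes 6.8% were lower and 7.59% higher. The part of these markers in the result was not tested. Calls were lost for Vldlr without male 1 (0.0523) or male 2 (0.059), for Gpihbp1 without male 2 (0.0545) or female 1 (0.0576), and for Angptl8 without male 1 (0.18), male 2 (0.178), female 2 (0.107) or the day 14 array of male 1 (0.0689).

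Transcription factors known to act on these genes went both ways: 7 of 26 measured of 33 rose and 2 fell in day 14 against day 1 (median -0.01), and 2, Creb3l3 and Rxra, rose in day 7 against day 1. Over all genes 7.59% rose and 6.8% fell in day 14 against day 1, and 2.74% rose in day 7 against day 1. Creb3l3, an activator of Apoa4 in mice, rose by 0.38 ± 0.09 in day 7 against day 1 (limma, adjusted p = 0.0486). In day 14 against day 1 it rose by 0.56 ± 0.09 (0.00449). The part of Creb3l3 in the level of Apoa4, which fell in day 14 against day 1, was not tested. Nr1d1, a clock repressor, rose by 0.77 ± 0.18 (0.0268), Dbp, a clock factor that binds the Alb promoter, by 0.69 ± 0.15 (0.016), and Ppara, a receptor that turns on fat burning, by 0.49 ± 0.11 (0.023). The other risers at day 14 were Rxra, Nr1h3 and Nr5a2; they fall outside the rule for named genes and were named after their values were seen. Dbp, at 0.42 in day 7 against day 1 (adjusted p = 0.159), passed there once each preparation was compared with itself (0.0495). Mlxipl, a glucose-sensing factor, fell by 0.80 ± 0.09 (0.00103) and Foxa2, a liver pioneer factor, by 0.34 ± 0.08 (0.0204). Hnf4a had a value of -0.15 ± 0.06 (0.12) and Zhx2, which represses Afp in the mouse liver after birth, 0.06 ± 0.06 (0.559). Between males and females Zhx2 had values of 0.13, 0.16 and 0.18 at days 1, 7 and 14 (adjusted p from 0.339 to 0.519). In day 7 against day 1 Mlxipl (-0.35), Foxa2 (-0.30) and Ppara (0.43) passed by limma with a trended and robust spread (adjusted p = 0.00534, 0.008 and 0.0106). They also passed there with dim genes left out (0.0395, 0.0382 and 0.0414). Mlxipl at day 14 passed with any preparation left out. The others lost their calls in at least 1 such fit: Creb3l3 at day 7 in all (0.103 to 0.299, besides 0.0608 with the preparation as a block, 0.0574 with arrays centred on their medians and 0.0581 with the day 14 array of male 1 left out) and at day 14 without female 1 (0.0611) or female 2 (0.0554), and Dbp without male 1 (0.169) or male 2 (0.0831). Nr1d1 lost its call without male 1 (0.226), male 2 (0.099), female 1 (0.115) or the day 14 array of male 1 (0.084), Ppara without male 1 (0.178), male 2 (0.166) or female 2 (0.0922), and Foxa2 without male 1 (0.18), male 2 (0.144) or female 1 (0.124).

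Afp is one of the genes by which fetal liver and progenitor cells are known, and the others of that list moved in both directions. Of 11 measured of 17 listed, 3 rose and 1 fell in day 7 against day 1 (median 0.31), against 2.74% and 1.98% of all genes. With a trended and robust spread Cd24a (0.31, adjusted p = 0.00777 by limma) also passed there. In day 14 against day 1, 5 rose and 1 fell (median 0.59), against 7.59% and 6.8% of all genes. Krt19, a keratin of bile duct cells, rose by 1.81 ± 0.16 (adjusted p = 0.00035), Bex1 by 1.65 ± 0.14 (0.00033), the cell surface gene Epcam by 1.19 ± 0.21 (0.00776), the RNA-binding gene Igf2bp3 by 1.11 ± 0.15 (0.00222) and Cd24a by 0.59 ± 0.08 (0.00293). Igf2, a fetal growth factor, fell by 2.49 ± 0.24 (0.000549), a mean of unlike changes: -0.37 and -1.13 in the male preparations and -4.30 and -4.13 in the female ones. Its levels at day 1 were 6.67 and 7.40 in males, against 10.81 and 11.32 in females, a difference of -4.03 ± 0.34 (adjusted p = 0.00299; 0.122 without male 1 and 0.0576 without male 2). The sexes differed in the change by 3.47 ± 0.48, which did not pass (0.166) except with the preparation as a block (0.0387). Beside them, bile duct markers, of which Krt19 and Epcam are part, had a mean over 7 of 11 genes of 7.99 to 8.39 at day 14, against 7.27 to 7.66 at day 1. Of these 7, Cldn7 (2.81), Krt19 and Epcam rose, while Tspan8 (0.21), Anxa4 (0.01), Sox9 (-0.22) and Krt7 (-0.56) did not pass; their part in the result was not tested. Krt19, Bex1 and Igf2 at day 14 passed with any preparation left out, while Epcam lost its call without male 1 (0.0826) or male 2 (0.127), Igf2bp3 without male 1 (0.0507) or male 2 (0.0597) and Cd24a without female 2 (0.0591). In day 7 against day 1 the calls of Igf2 (-1.73, adjusted p 0.055 to 0.0882) and Igf2bp3 (0.64, 0.061 to 0.349) were lost with each preparation left out, that of Krt19 (1.58) without male 1 (0.0583) and that of Bex1 (1.44) without male 1 (0.0821) or male 2 (0.0501). Igf2bp3 at day 7 also lost its call with the day 14 array of male 1 left out (0.0719) and after a second quantile normalization (0.0556).

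**Figure D5:**
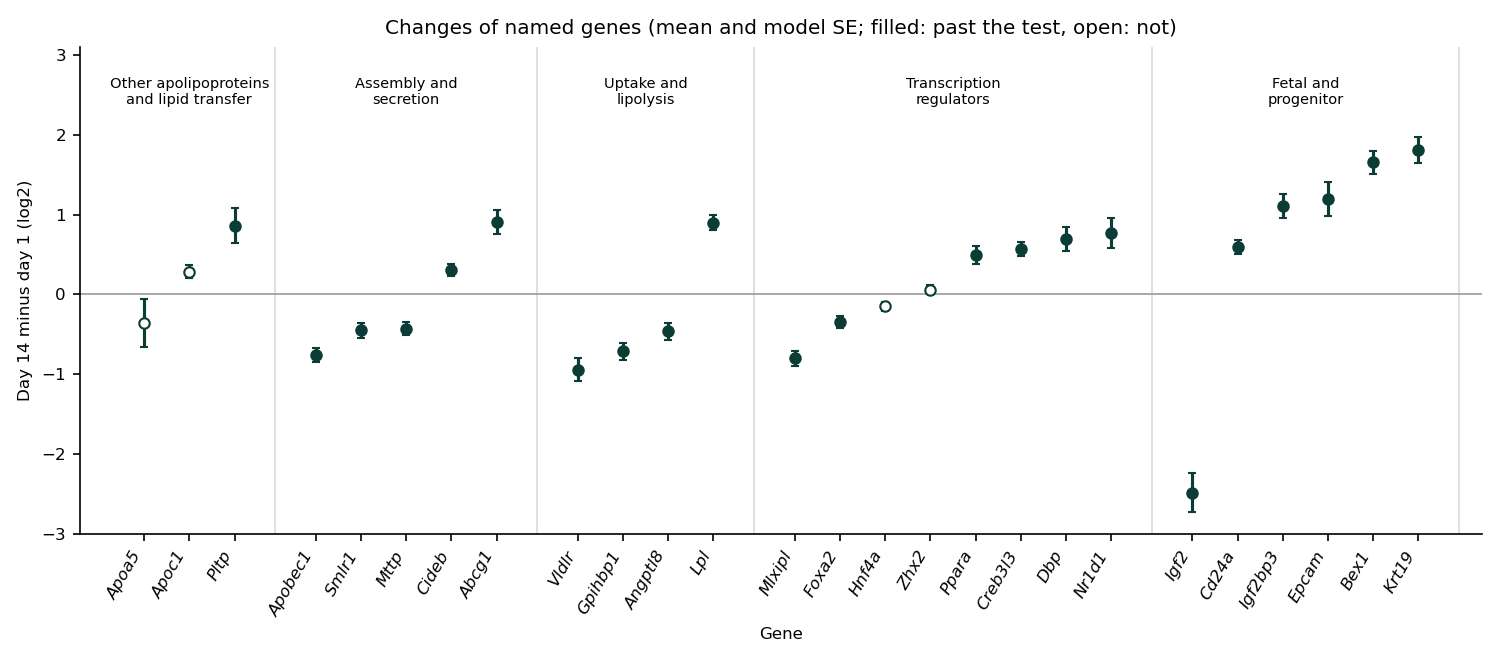
Change in log2 level from day 1 to day 14 for the named genes of 5 lists (points, with the model's SE as bars), filled where the gene passed the test and open where it did not. Lpl and Abcg1 lie near 0.9, Apobec1 at -0.76 and Igf2 at -2.49.

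Hepatocyte markers had 0 of 13 members past the test in day 14 against day 1 by limma, against 14.4% of all genes, with a median of 0.01. The one with the largest value, Cyp2e1, stood at -1.16 (adjusted p = 0.301) and varied between preparations, from 2.87 to 7.14 at day 14 against 4.56 to 6.44 at day 1.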

How the data were processed

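Biotin-labelled cDNA from 12 spheroid samples was hybridised to expression arrays. The deposited values are on the log2 scale, 1 per probe set and array. Per the submitters' processing notes RMA, Transcriptome Analysis Console 4.0 and Partek 7.0 were used, with no role or order stated; which build and which filter were applied is not given in the sources used here. Each of the 13081 probe sets reached at least 4.79 on an array. The platform annotation named 1 gene for 11889 probe sets and none for 1192, and the probe set of highest mean was kept per gene. No column of sample values went unused. RefSeq (GRCm38.p6) gave gene order and promoters.

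Tests used limma 3.58.1 in R 4.3.3: a mean for each of 6 groups, lmFit, contrasts.fit and eBayes, two-sided, with Benjamini-Hochberg adjustment over 11861 genes and a threshold of 0.05. Day comparisons average the change in both sexes, and sex differences are male minus female. The comparison of sexes over the whole culture used 1 mean per preparation. Each ± is the model's standard error, and its number of arrays limits the precision (median standard error 0.0946 for a day comparison). Scripts were tested on simulated data.

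Same-numbered arrays of a sex are, per the labels, the same preparation, so the numbers pair the days; their deviations from group means correlated across genes at 0.0359 to 0.324. Alternatives were the preparation as a block, leaving out each preparation or the array of male 1 at day 14, centring, a second quantile normalization, a trended and robust spread and a filter at a mean of 6. The preparation as a random block (duplicateCorrelation, for the sexes within a day) was added after seeing the data. Where a preparation is left out, its sex has 1 array per day, assumed to vary like the others. The genes and lists were chosen with earlier results of these data known. Named genes are the 10 members, up to 6 genes per list that passed in a day comparison, taken by size of change (the largest change where none passed), a few fixed ones, some of which were not analysed here, and the 3 most alike over the arrays.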

Additional observations from a re-analysis of the deposited data

Results flagged for a closer look

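Sets of 4 values were tested for 1 value far from the rest (the arrays of a day, or the changes of the 4 preparations, for each gene). Of 60 such sets 3 stood out, under a rule that flags about 1 in 20 independent sets at random. The sets of a gene share arrays and are not independent, so this rate is only a rough guide. Apoe at day 1 was lower in male preparation 2 (12.48) than in the other 3 (12.57 to 12.58), a gap of 0.897 of the range. Apob at day 1 was higher in female preparation 2 (11.81) than in the others (11.66 to 11.69), a gap of 0.832 of the range. Alb changed by 0.0646 in male preparation 2 in day 7 against day 1 and by 0.0214 to 0.0229 in the others, a gap of 0.965 of the range.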

How the results depend on the processing

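No result changed direction with a call under any alternative run. Of the values of the 10 genes under the alternatives, 818 kept their side of the threshold, 56 lost a call and 16 gained one; Alb, at 0.01 in day 14 against day 1 and not past the threshold, had -0.02 after a second quantile normalization. With each preparation left out, the number of members past the threshold was 0 (lowest and highest) in day 7 against day 1, where all 12 arrays gave 2, 1 in day 14 against day 1 (5), 0 for the sexes at days 1 and 7 (2 each), 0 to 1 at day 14 (2) and 0 for sex over all days (1); in day 14 against day 7, between the weeks and for the sex difference in the change it was 0, as with all arrays. Without the array of male 1 at day 14 it was 3 in day 14 against day 1, 0 for the sexes at day 14 and 2 for sex over all days. With a trended and robust spread it was 2 in day 14 against day 7, 2 between the weeks, 4 for the sexes at day 14 and 4 for sex over all days; with a filter at a mean of 6 it was 1 in day 14 against day 7 and 2 for sex over all days. With the preparation as a replicate block it was 1 in day 14 against day 7 (Apom), and the block changed no other call of the 10 genes; a fixed block could not be used for the sexes. Over all genes, leaving out a preparation gave 40 to 75 genes in day 7 against day 1 (560), 494 to 826 in day 14 against day 1 (1706), 0 to 8 in day 14 against day 7 (58), 0 between the weeks (1), 3 to 21, 4 to 18 and 11 to 113 for the sexes at days 1, 7 and 14 (91, 42 and 126), 0 to 17 for the sex difference in the change (0) and 3 to 26 for sex over all days (21). The trended and robust spread gave 956, 309, 116, 292, 178, 411, 14 and 974 in day 7 against day 1, day 14 against day 7, between the weeks, for the sexes at days 1, 7 and 14, for the sex difference in the change and over all days. The block gave 0 between the weeks and 1 for the sex difference in the change. In day 14 against day 7 the count was 101 with the block, 103 with the filter and 9 without the array of male 1 at day 14, which gave 8 for the sexes at day 14. The filter gave 70 for the sexes at day 7, 10 between the weeks and 282 for sex over all days. The cause of these shifts was not tested; leaving out a preparation also leaves fewer arrays. Each member had 1 probe set, so no other probe set could be tried. No background was measured, and levels above 12 are compressed.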
